A study of Homo sapiens with 12 samples.

Results

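The lysosome and autophagy genes described here are 35 genes named by symbol, out of 21574 features with a deposited expression value. Membership rests on the listed symbols alone, and all 35 were found. The list was drawn up with earlier results of these data known. By role they comprise 2 transcription factors, 6 proteases, 7 glycan and lipid hydrolases, 2 lipid transfer and cofactor proteins and 4 lysosomal membrane proteins. The remaining members are 5 subunits of the proton pump V-ATPase, 4 proteins that start an autophagosome and 5 that conjugate, form or bind its ATG8 coat. The values come from RNA-seq of MDA-231-LM2 cells, a subline of MDA-MB-231, a human breast cancer line, that was selected for metastasis to the lung. The 12 libraries form 4 groups of 3. Ctrl and TMEM216 name the cell populations without added IGF1, and Ctrl+IGF1 and TMEM216+IGF1 the same populations with it. IGF1 is the ligand of the growth factor receptor IGF1R, and TMEM216 is a membrane protein of the transition zone at the base of the cilium. How TMEM216 was altered, with which vector or clone, and how much IGF1 was given for how long are not stated in the labels. All groups are of this single line. Nothing in the labels says that replicates were separate cultures, so each p-value measures the spread between libraries, which may be technical.

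Lysosomes are acidic organelles in which hydrolases break down proteins, glycans and lipids, and autophagosomes deliver cytoplasmic cargo to them. The transcription factors TFEB and TFE3 can switch on many genes of both systems through a short DNA element, the CLEAR motif, built around the E-box CACGTG. Phosphorylation by the kinase complex mTORC1 keeps these factors in the cytoplasm, a regulation that transcript levels do not report.

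Expression was deposited as TPM, a measure scaled by transcript length that adds up to the same total in each library. Levels of different genes can therefore be set side by side, but the sequencing depth is unknown. In these bulk libraries fewer cells of a type and less RNA per cell cannot be told apart. TMEM216 transcript was at 24.0 to 30.1 TPM in the Ctrl libraries and at 163 to 250 TPM in the TMEM216 libraries, IGF1 included (two-sided exact permutation test over 924 splits, p = 0.00216, the smallest they can give). As the populations are named for this gene, this is a check of the labels and no finding about the members. The splits did not keep the IGF1 groups apart. Correlations between libraries ranged from 0.977 to 0.990 on the log2 scale. All 6 markers of the MDA-MB-231 line were expressed, with a summed level of 8320 to 10036 TPM. The 8 markers of macrophages, a cell type rich in lysosomes, summed to 2.81 to 3.40 TPM in the libraries of Ctrl cells. In those of TMEM216 cells the sum was 2.98 to 5.11 TPM. CD14 (1.47 to 3.94 TPM over the 12 libraries) and CSF1R (0.664 to 2.14 TPM) had a mean of at least 1 TPM. C1QA and C1QB were listed at 0 in every library. Summed markers of luminal breast (5 genes), fibroblast (5), endothelial (5) and adipocyte (4) cells stayed within 6.14 to 9.07, 0.952 to 1.60, 2.00 to 4.24 and 0.460 to 1.63 TPM.

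A pair of libraries stood apart in the members. Together the 35 genes made up 0.440% of the TPM total of TMEM216 replicate 1 and 0.447% of that of Ctrl+IGF1 replicate 3, while the other 10 libraries ranged from 0.482% to 0.527%. Within its group of 3, Ctrl+IGF1 replicate 3 held the lowest value of 26 of the 35 members, and TMEM216 replicate 1 that of 21. Ctrl+IGF1 replicate 2 held the highest value of 26. The same counts were not made over all features, so they are not read as particular to the members. The median deviation of the members from their group mean was -0.12 in Ctrl+IGF1 replicate 3, where it was also -0.12 over all 13071 tested features. In TMEM216 replicate 1 it was -0.090 for the members and -0.039 for all features. In TMEM216 replicate 1 the V-ATPase subunit ATP6V1B2 lay 0.50 below its group mean on the log2 scale, the hexosaminidase chain HEXA 0.49, the saposin precursor PSAP 0.42 and the acid lipase LIPA 0.40. TFEB (0.26) and the autophagy kinase ULK1 (0.23) lay above it. Transcripts of ribosomal protein genes accounted for 16.9% of the total of Ctrl+IGF1 replicate 3 and 14.5% of that of TMEM216 replicate 1, and for 12.4% to 14.4% elsewhere. Their part in the results was not tested, and counts are given with and without these libraries. Ctrl+IGF1 replicate 3 and TMEM216 replicate 1 were picked from the members' own values, so fits without both are no independent check. Ctrl+IGF1 replicate 2, at the opposite extreme, was kept in those fits.

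**Figure D1:**
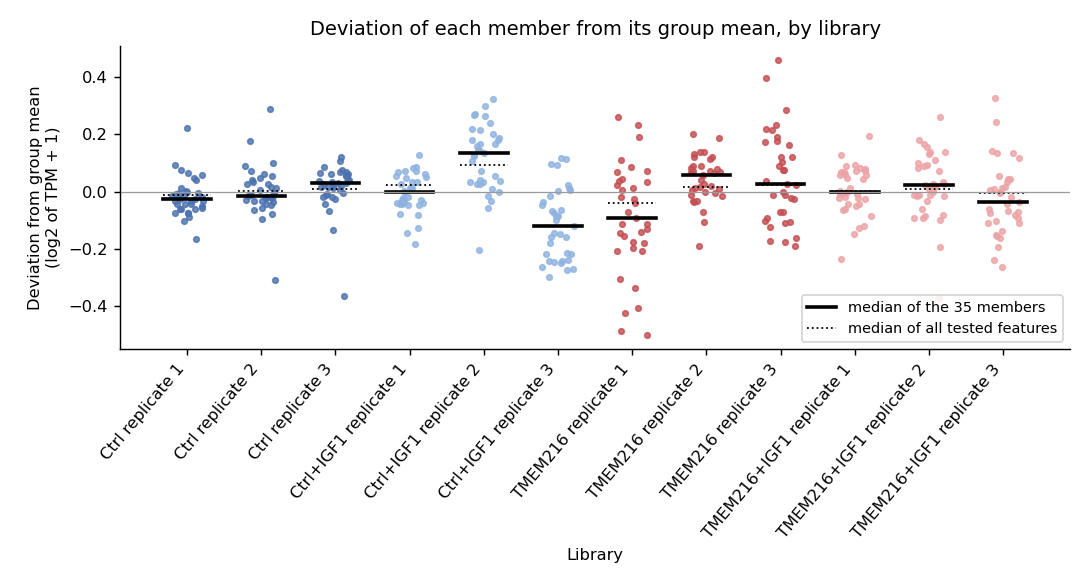
Deviation of each of the 35 members from the mean of its own group, in log2 of TPM + 1, for each of the 12 libraries; points are genes, the solid bar is the median of the members and the dotted bar the median of all tested features. The cloud sits low in Ctrl+IGF1 replicate 3 (median -0.12) and TMEM216 replicate 1 (-0.090) and high in Ctrl+IGF1 replicate 2 (0.13).

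Every member was expressed at 1 TPM or more in all 12 libraries, so none was lost to the filter on low values. Mean levels over the 12 libraries ran from 799 TPM for the tetraspanin CD63 down to 2.04 TPM for TFEB. After CD63 came PSAP (522 TPM), the aspartic protease cathepsin D, CTSD (475 TPM), and the autophagy cargo receptor p62, SQSTM1 (452 TPM). The ranges of these 3 over the libraries, 355 to 604, 373 to 594 and 381 to 536 TPM, overlapped, so their order is not resolved. The sterol carrier NPC2 followed at 294 TPM, then the V-ATPase subunit ATP6V0E1 at 246 TPM, the carboxypeptidase and protective protein CTSA at 218 TPM and the cysteine protease CTSB at 205 TPM. At the low end stood UVRAG, a subunit of a lipid kinase complex, at 14.5 TPM, ULK1 at 11.9 TPM and the beta-mannosidase MANBA at 7.32 TPM. The 2 transcription factors differed widely, with TFE3 at 63.5 TPM and TFEB lowest of all members. TFEB was also the most variable, with a coefficient of variation of 32.6% over the 12 libraries against 4.44% for CD63, and its highest library was 2.93 times its lowest.

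**Figure D2:**
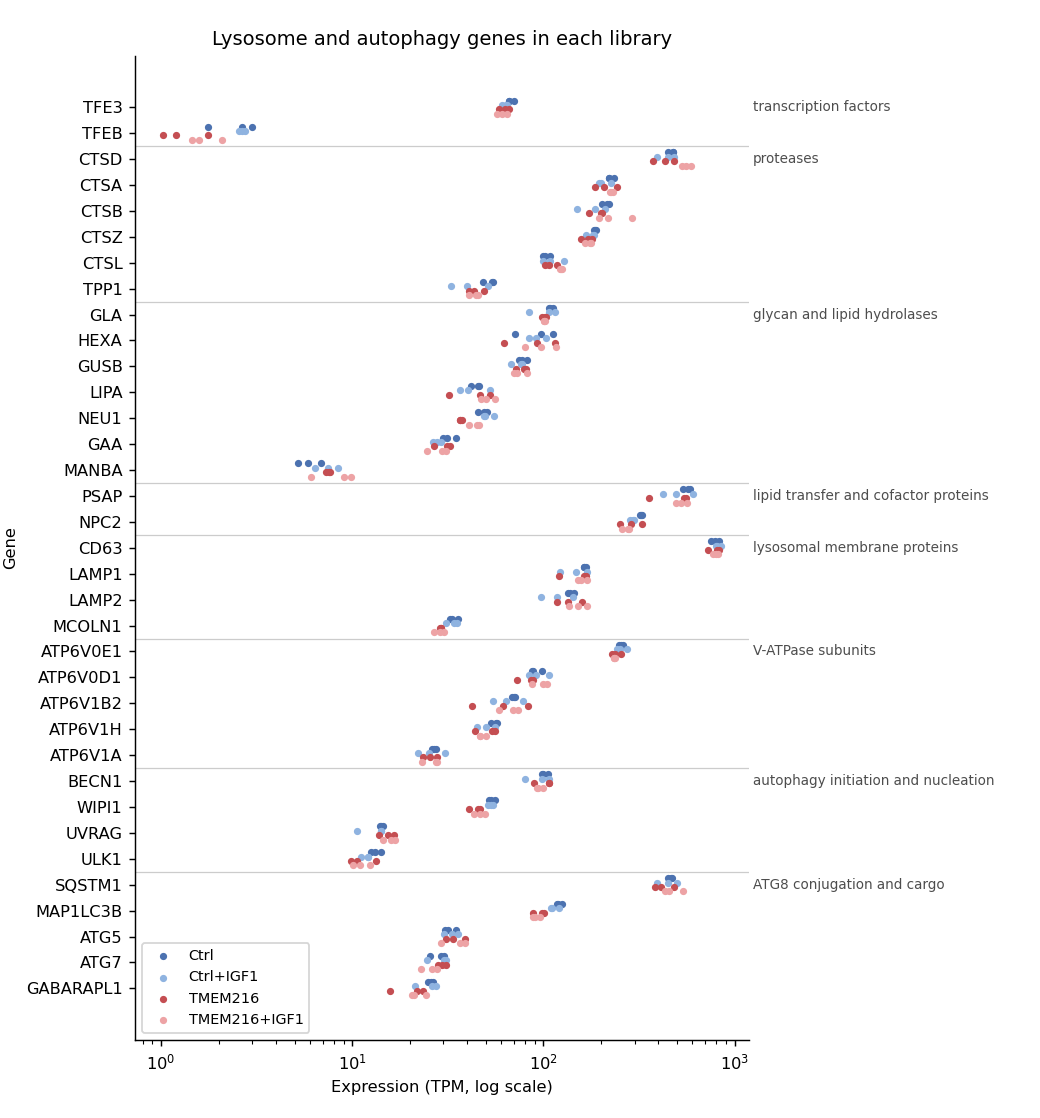
Expression of each of the 35 genes in the 12 libraries, in TPM on a log axis, with the genes ordered by role and the 4 groups drawn in separate colours and rows; each point is 1 library. The spread over libraries is small beside the distance between genes, from TFEB at a mean of 2.04 TPM to CD63 at 799 TPM.

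The comparison of TMEM216 with Ctrl cells averaged over IGF1, which uses all 12 libraries, asked how the members differed with TMEM216 on the mean of both IGF1 conditions. A gene can pass it through a difference in mainly 1 condition. MAP1LC3B, NEU1, WIPI1, TFEB and MCOLN1 were lower in TMEM216 cells, by 0.22 to 0.50 on the log2 scale, and no member was higher. These 5 have different roles: an autophagosome coat protein, a sialidase, a phosphoinositide-binding autophagy protein, a transcription factor and a lysosomal calcium channel. The 5 of 35 past the threshold (limma on log2 of TPM + 1, Benjamini-Hochberg adjusted p under 0.05 over 13071 features) stand beside 3.21% of all features called lower and 2% called higher. The median change of the 35 was -0.045, against -0.00054 over all features, and 24 of them were fitted below 0, against 50.1% of all features. On leaving out 1 library at a time the median ran from -0.075 (Ctrl+IGF1 replicate 3 omitted) to -0.0088 (Ctrl+IGF1 replicate 2) and -0.0080 (TMEM216 replicate 1) for the members and from -0.027 to 0.019 for all features.

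MAP1LC3B (ENSG00000140941) encodes LC3B, an ATG8 protein that is coupled to lipid in the autophagosome membrane. Its level was 118, 119 and 125 TPM in the Ctrl libraries and 110, 109 and 121 TPM in Ctrl+IGF1. In the TMEM216 libraries it was 98.0, 100.3 and 88.5 TPM, and in TMEM216+IGF1 88.4, 96.3 and 90.4 TPM. All 6 TMEM216 libraries lay below all 6 Ctrl libraries. The mean fell from 117 ± 6.33 to 93.7 ± 5.21 TPM (SD, n = 6 libraries each), a log2 change of -0.32 (SE 0.052, limma adjusted p = 0.00428). This call held on leaving out any single library. MAP1LC3B shares exon sequence with FBXO31 on the opposite strand in GENCODE release 29, and the sources used here do not state whether strand was kept. FBXO31 itself was at 9.92 TPM with a change of -0.028 (adjusted p = 0.876). The near-identical copy MAP1LC3B2 was listed at 2.17 to 4.74 TPM, and reads could have been split between the copies.

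NEU1 (ENSG00000204386) encodes the lysosomal sialidase, which removes sialic acid from glycoproteins and glycolipids. Its level was 48.8, 45.8 and 50.7 TPM in Ctrl and 49.4, 55.0 and 48.8 TPM in Ctrl+IGF1. It was 36.5, 37.7 and 36.6 TPM in TMEM216 and 45.8, 44.7 and 40.6 TPM in TMEM216+IGF1. The TMEM216 libraries without IGF1 were the lowest 3 of the 12, and TMEM216+IGF1 replicate 1 slightly exceeded Ctrl replicate 2. Over both conditions NEU1 fell from 49.7 ± 3.06 to 40.3 ± 4.13 TPM (SD, n = 6), a log2 change of -0.30 (SE 0.055, limma adjusted p = 0.00869), a call that also held on leaving out any single library.

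WIPI1 (ENSG00000070540) encodes a protein that binds phosphatidylinositol 3-phosphate where autophagosomes form. It was at 51.7, 55.8 and 53.5 TPM in Ctrl, 51.4, 54.5 and 53.3 TPM in Ctrl+IGF1, 46.4, 41.0 and 45.4 TPM in TMEM216 and 49.5, 43.2 and 46.6 TPM in TMEM216+IGF1. Every TMEM216 library was below every Ctrl library. WIPI1 fell from 53.4 ± 1.65 to 45.3 ± 2.95 TPM (SD, n = 6), a log2 change of -0.23 (SE 0.055, limma adjusted p = 0.0299). The call was kept when Ctrl+IGF1 replicate 2 or 3 was dropped, and likewise for TMEM216 replicate 1 or 3 and TMEM216+IGF1 replicate 1. On leaving out any of the other 7 libraries the adjusted p lay between 0.0592 and 0.0896, with changes of -0.24 to -0.21. WIPI1 shares exon sequence with ARSG on the opposite strand. ARSG was at 5.40 TPM with a change of 0.12 (limma adjusted p = 0.607).

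TFEB (ENSG00000112561), the transcription factor named above, was at 3.00, 1.77 and 2.64 TPM in Ctrl and 2.55, 2.73 and 2.65 TPM in Ctrl+IGF1. In TMEM216 it was at 1.77, 1.02 and 1.19 TPM and in TMEM216+IGF1 at 2.08, 1.58 and 1.45 TPM. Of the 6 libraries of Ctrl cells only Ctrl replicate 2 reached down into the TMEM216 range. TFEB fell from 2.56 ± 0.416 to 1.52 ± 0.384 TPM (SD, n = 6), a log2 change of -0.50 (SE 0.12, limma adjusted p = 0.0350), which understates the fold difference at so low a level because 1 was added to each TPM. The call held on leaving out Ctrl replicate 2, TMEM216 replicate 1 or TMEM216+IGF1 replicate 1, and on leaving out any of the other 9 libraries the adjusted p was 0.0516 to 0.0943 with changes of -0.51 to -0.45.

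MCOLN1 (ENSG00000090674) encodes TRPML1, the channel through which calcium leaves the lysosome. It was at 32.4, 33.4 and 35.6 TPM in Ctrl, 35.1, 34.0 and 31.1 TPM in Ctrl+IGF1, 29.2, 29.2 and 28.8 TPM in TMEM216 and 30.2, 26.8 and 28.7 TPM in TMEM216+IGF1. The ranges did not overlap. MCOLN1 fell from 33.6 ± 1.70 to 28.8 ± 1.09 TPM (SD, n = 6), a log2 change of -0.22 (SE 0.055, limma adjusted p = 0.0434). Only leaving out Ctrl+IGF1 replicate 3 kept this call, and without any of the other 11 libraries the adjusted p was 0.0557 to 0.119, with changes of -0.23 to -0.19. Its exons overlap those of PNPLA6, a phospholipase gene, on the same strand. PNPLA6, at a mean of 65.8 TPM, also fell, by 0.27 (SE 0.057, adjusted p = 0.0164), and how reads were shared between these genes is not known.

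**Figure D3:**
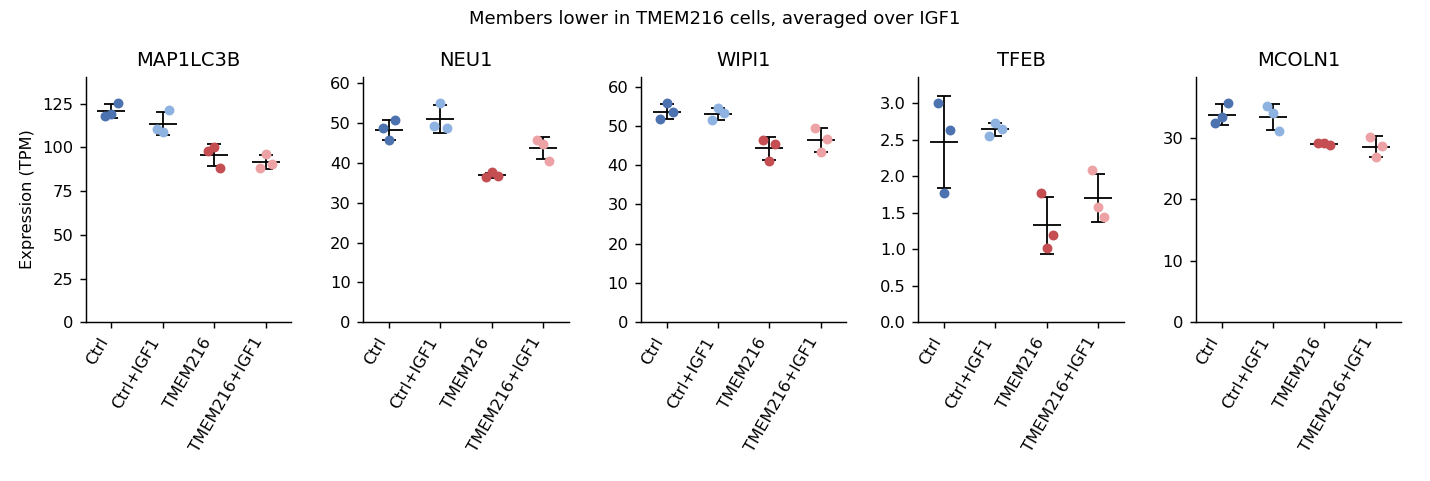
Expression in TPM of MAP1LC3B, NEU1, WIPI1, TFEB and MCOLN1 in the 4 groups; coloured points are the 3 libraries of a group, and the black marks are their mean and SD, with each axis starting at 0. MAP1LC3B, WIPI1 and MCOLN1 show no overlap between the 6 Ctrl and the 6 TMEM216 libraries, while NEU1 and TFEB do.

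Of the 35 members, 3 (MAP1LC3B, WIPI1 and MCOLN1) had all 6 TMEM216 libraries below all 6 Ctrl libraries, against 2.42% of all features, and none had them all above, against 1.97%. Once both Ctrl+IGF1 replicate 3 and TMEM216 replicate 1 were left out, 7 members were called lower in the averaged comparison, and the share of all features called lower was then 5.25% in place of 3.21%. They were the same 5 and, named for that reason after their values were seen, the ATG8 protein GABARAPL1 and the sterol carrier NPC2. With all 12 libraries GABARAPL1 changed by -0.25 (limma adjusted p = 0.173) and NPC2 by -0.14 (adjusted p = 0.217). In that reduced fit MAP1LC3B stood at -0.31, NEU1 at -0.31, WIPI1 at -0.25, TFEB at -0.57 and MCOLN1 at -0.24. As its omitted libraries were picked from the members' values, its added calls are no independent check.

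The other transcription factor did not pass. TFE3 (ENSG00000068323) was at 70.4, 66.2 and 66.4 TPM in Ctrl, 63.7, 64.6 and 61.1 TPM in Ctrl+IGF1, 65.9, 63.3 and 58.7 TPM in TMEM216 and 64.2, 57.2 and 60.5 TPM in TMEM216+IGF1. The ranges overlapped, and the averaged change was -0.085 (SE 0.051, limma adjusted p = 0.398). LAMP1 (ENSG00000185896), a heavily glycosylated protein of the lysosomal membrane, was at 163, 163 and 168 TPM in Ctrl, 149, 169 and 122 TPM in Ctrl+IGF1, 120, 164 and 167 TPM in TMEM216 and 157, 170 and 152 TPM in TMEM216+IGF1. Its lowest values were those of the 2 libraries that stood apart, and the change was -0.0058 (SE 0.093, adjusted p = 0.983).

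SQSTM1 (ENSG00000161011), which links ubiquitinated cargo to the ATG8 coat, was at 447, 464 and 471 TPM in Ctrl, 448, 498 and 392 TPM in Ctrl+IGF1, 381, 415 and 485 TPM in TMEM216 and 435, 536 and 454 TPM in TMEM216+IGF1. The 4 groups overlapped throughout, with a change of -0.011 (SE 0.078, limma adjusted p = 0.960). ULK1, the kinase that starts autophagosome formation, was at 12.6, 14.2 and 13.1 TPM in Ctrl, 12.0, 12.1 and 11.1 TPM in Ctrl+IGF1, 13.3, 10.6 and 9.88 TPM in TMEM216 and 10.1, 11.0 and 12.4 TPM in TMEM216+IGF1. The TMEM216 values spread more widely than the Ctrl values and overlapped them, and the change was -0.15 (SE 0.082, adjusted p = 0.351).

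RefSeq promoter windows (GRCh38.p14, 250 bases before to 50 after a gene's start, 300 in all) were available for 25 of the 35 members, in 40 windows. None was at hand for ATP6V0E1, PSAP, ATP6V1A, ATP6V1H, LAMP2, ATP6V1B2, HEXA, CTSB, MANBA and UVRAG. The windows of MAP1LC3B, NEU1, WIPI1 and MCOLN1 are printed because these genes fell. Capitals mark CACGTG with the neighbouring bases that extend it to TCACGTG on either strand or to the full CLEAR palindrome GTCACGTGAC.
MCOLN1, chr19:7522374-7522673, plus strand: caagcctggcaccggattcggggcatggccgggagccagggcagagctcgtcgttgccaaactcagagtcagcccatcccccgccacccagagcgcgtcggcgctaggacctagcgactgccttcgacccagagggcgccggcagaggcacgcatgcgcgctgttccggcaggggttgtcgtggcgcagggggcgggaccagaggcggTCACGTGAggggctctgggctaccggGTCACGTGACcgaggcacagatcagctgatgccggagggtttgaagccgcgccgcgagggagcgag
NEU1, chr6:31862772-31863071, minus strand: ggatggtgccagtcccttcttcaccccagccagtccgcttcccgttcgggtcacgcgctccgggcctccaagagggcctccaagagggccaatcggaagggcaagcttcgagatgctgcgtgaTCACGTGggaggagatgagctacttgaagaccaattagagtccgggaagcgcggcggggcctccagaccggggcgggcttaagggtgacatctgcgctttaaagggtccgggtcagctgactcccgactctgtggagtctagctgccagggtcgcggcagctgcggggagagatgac
MAP1LC3B, chr16:87392086-87392385, plus strand: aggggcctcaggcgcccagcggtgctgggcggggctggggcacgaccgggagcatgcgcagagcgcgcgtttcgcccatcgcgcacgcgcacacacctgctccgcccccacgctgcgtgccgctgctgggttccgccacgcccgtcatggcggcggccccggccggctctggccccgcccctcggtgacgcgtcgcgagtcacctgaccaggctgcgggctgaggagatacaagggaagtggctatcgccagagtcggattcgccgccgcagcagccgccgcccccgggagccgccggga
WIPI1, chr17:68457447-68457746, minus strand: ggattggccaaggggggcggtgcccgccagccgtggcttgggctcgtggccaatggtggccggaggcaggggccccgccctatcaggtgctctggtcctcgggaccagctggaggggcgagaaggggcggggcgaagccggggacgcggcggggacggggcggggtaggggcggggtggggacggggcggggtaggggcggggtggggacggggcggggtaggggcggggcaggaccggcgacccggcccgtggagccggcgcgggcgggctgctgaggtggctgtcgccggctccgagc
MCOLN1 holds 2 E-boxes, centred 38 and 11 bases before the start, and the latter is a complete palindrome. NEU1 holds 1, centred 123 bases before the start. MAP1LC3B, WIPI1 and the 3 windows of TFEB hold no CACGTG, which says only that these letters are not in these windows.

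Among the members that did not pass, GAA, LAMP1, CTSD, CTSA and ATP6V0D1 also hold TCACGTG. For GAA, LAMP1, CTSD and ATP6V0D1 the nearest site wholly before the start is shown for comparison with those of the genes that fell, in 30 bases each.
GAA, chr17:80101538-80101567, plus strand: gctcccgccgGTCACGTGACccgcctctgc
LAMP1, chr13:113297199-113297228, plus strand: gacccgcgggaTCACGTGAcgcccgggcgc
CTSD, chr11:1763957-1763986, minus strand: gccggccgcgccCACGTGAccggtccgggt
ATP6V0D1, chr16:67481199-67481228, minus strand: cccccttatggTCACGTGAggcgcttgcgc
GAA, the acid alpha-glucosidase that degrades glycogen, carries 2 complete palindromes like that of MCOLN1. They are centred 73 and 28 bases before its start, and the latter is printed. The window of LAMP1 holds 6 E-boxes, that of CTSA 2, and those of CTSD and ATP6V0D1 1 each. The site printed for LAMP1 is centred 25 bases before the start, and those of CTSD and ATP6V0D1 44 and 56 bases before it.

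Searched on both strands, TCACGTG was present in 7 of the 25 members with a window (28%: ATP6V0D1, CTSA, CTSD, GAA, LAMP1, MCOLN1 and NEU1), against 4.49% of 27305 genes with a window and 3.71% of all 35116 windows. GTCACGTGAC, which contains TCACGTG, was in GAA and MCOLN1 alone (8% of the 25), against 0.421% of genes and 0.353% of windows. CACGTG, contained in both, was in 8 members (32%, with CD63 added), against 8.77% of genes and 7.26% of windows. Of the 7 members with TCACGTG, 2 were lower in TMEM216 cells in the averaged comparison, and of the 18 with a window without it, 3 were. Over all features 3.21% were called lower. The median change was -0.033 in the former and -0.063 in the latter, with overlapping ranges of -0.30 to 0.11 and -0.50 to 0.11. Of the 10 members without a window 0 were called, and their median was -0.015. Whether the motif has a part in these changes was not tested, and a match is not evidence of binding.

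Without IGF1, NEU1 alone of the 35 passed the threshold, against 0.941% of all features called lower and 0.153% called higher. Over all features that is 123 lower and 20 higher, and after median-of-ratios scaling 115 lower and 55 higher. NEU1 fell from 48.4 ± 2.50 TPM in Ctrl to 36.9 ± 0.647 TPM in TMEM216 (SD, n = 3), a log2 change of -0.38 (SE 0.078, limma adjusted p = 0.0434). The call was kept when Ctrl+IGF1 replicate 2 or 3 was dropped (both lie outside the groups compared but enter the variance estimate). On leaving out any of the other 10 libraries the adjusted p was 0.0519 to 0.190, with changes of -0.42 to -0.35. MAP1LC3B, at -0.34 (SE 0.073), had an adjusted p of 0.0529. Of the members 30 were fitted below 0, against 62% of all features, and their median change was -0.12 against -0.048 (-0.061 against 0.0023 after median-of-ratios scaling). In 10 of 35 all 3 TMEM216 libraries lay below all 3 Ctrl libraries, against 15.5% of all features, and in 1 (MANBA, with a change of 0.29 and an adjusted p of 0.477) they lay above, against 6.3%. Without the 2 libraries that stood apart, NEU1 and MAP1LC3B passed, at -0.37 (adjusted p = 0.0462) and -0.36 (adjusted p = 0.0349), while the share of all features called lower rose to 1.8%. The members' median in that fit was -0.038 against -0.025 over all features.

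With IGF1 present, no member passed in limma, against 0.918% of all features called higher and 0.696% called lower. At an unadjusted p under 0.05 there were 4 members higher and 5 lower, against 9.98% and 5.85% of all features. MAP1LC3B came nearest, at -0.30 (SE 0.073, adjusted p = 0.0660), and passed when either Ctrl+IGF1 replicate 2 or TMEM216 replicate 3 was dropped. The other members lower in the averaged comparison changed by -0.22 (NEU1), -0.19 (WIPI1), -0.44 (TFEB) and -0.22 (MCOLN1) here, with adjusted p of 0.206, 0.262, 0.256 and 0.205, and without IGF1 WIPI1, TFEB and MCOLN1 stood at -0.27, -0.57 and -0.21 (adjusted p = 0.126, 0.153 and 0.258). The averaged comparison contains both of these. The members' median with IGF1 was 0.021 (-0.034 after median-of-ratios scaling and -0.014 after quantile normalization), against 0.048 over all features, and 14 were fitted below 0, against 40%. It was -0.055 without Ctrl+IGF1 replicate 3, against -0.0056 over all features. All 3 TMEM216+IGF1 libraries were above all 3 Ctrl+IGF1 libraries for 2 members, CTSD and UVRAG, against 12% of all features, and below them for 7, against 7.69%.

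**Figure D4:**
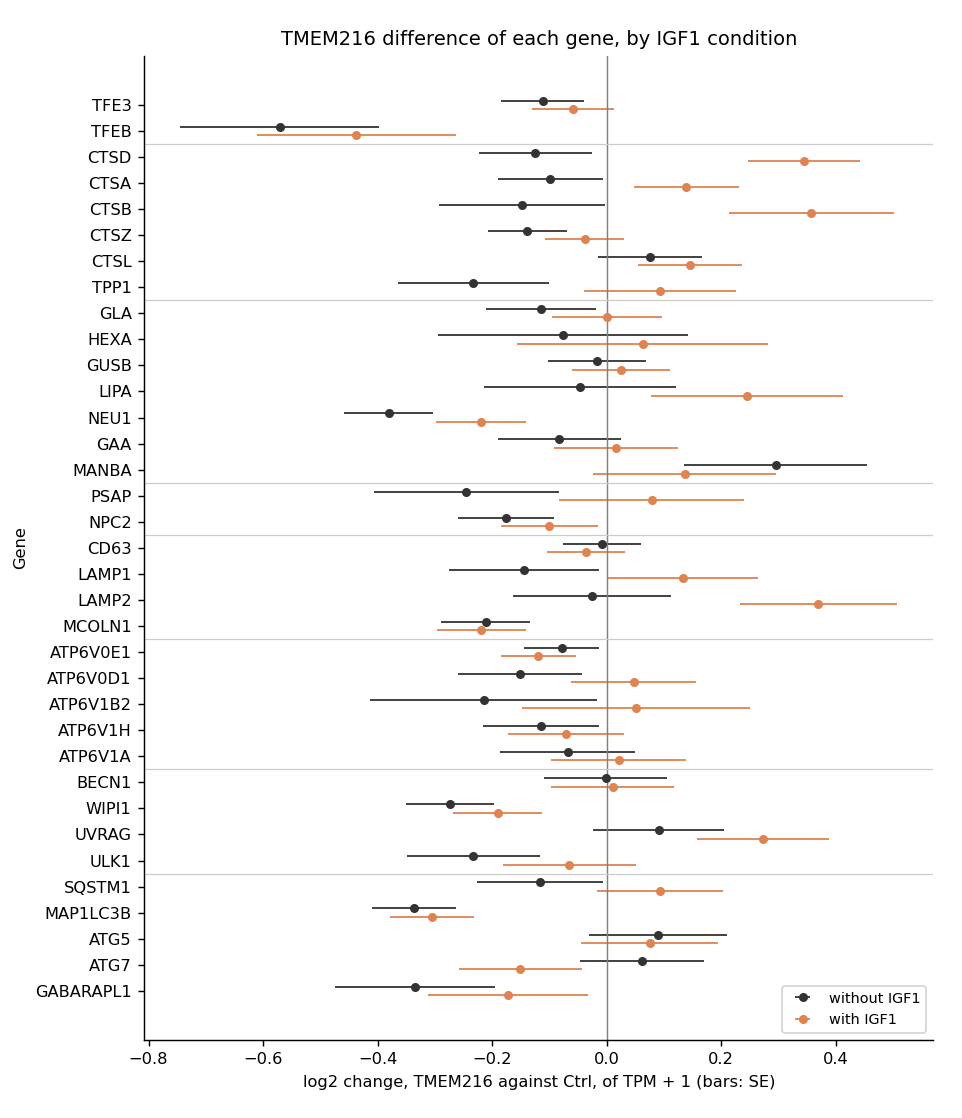
Log2 change of TPM + 1 between TMEM216 and Ctrl cells for each of the 35 genes, ordered by role, without IGF1 (dark) and with IGF1 (orange); bars are limma's standard errors. Without IGF1 30 of the 35 points lie below 0, with IGF1 14 do, and MAP1LC3B, NEU1, WIPI1, TFEB and MCOLN1 lie below 0 in both.

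CTSD is described here because its groups separated, a choice made after its values were seen. It was at 447, 475 and 476 TPM in Ctrl, 450, 485 and 395 TPM in Ctrl+IGF1, 373, 433 and 482 TPM in TMEM216 and 558, 594 and 532 TPM in TMEM216+IGF1. The 3 TMEM216+IGF1 libraries were the highest of all 12. The difference from Ctrl+IGF1 was 0.34 (SE 0.099, limma adjusted p = 0.119) and that from TMEM216 without IGF1 0.39 (SE 0.099, adjusted p = 0.595), so neither passed over all features. The exons of CTSD overlap those of AC068580.4 on the same strand, and how reads were shared between these genes is not known. CTSB, a cysteine protease, and LAMP2, a relative of LAMP1, stood at 0.36 (adjusted p = 0.261) and 0.37 (adjusted p = 0.225) between TMEM216+IGF1 and Ctrl+IGF1, with overlapping libraries, and UVRAG at 0.27 (adjusted p = 0.281).

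By role, the averaged TMEM216 difference passed for 1 of 2 transcription factors (TFEB), 1 of 7 glycan and lipid hydrolases (NEU1), 1 of 4 membrane proteins (MCOLN1), 1 of 4 initiation proteins (WIPI1) and 1 of 5 ATG8 conjugation and cargo proteins (MAP1LC3B), each lower. None of the 6 proteases, the 5 V-ATPase subunits or the 2 lipid transfer and cofactor proteins passed in limma. At an unadjusted p under 0.05 these 3 roles had 0, 0 and 1 members, the last being NPC2. Over the 35 members that count was 7 lower and 1 higher, against 11.1% and 8.93% of all features. The proteases CTSA, CTSB, CTSD, CTSL, CTSZ and the tripeptidyl peptidase TPP1 had a median of 0.063 (range -0.089 to 0.11, smallest adjusted p = 0.348). The V-ATPase subunits ATP6V0D1, ATP6V0E1, ATP6V1A, ATP6V1B2 and ATP6V1H, which together acidify the lysosome, had values of -0.099 to -0.024 (smallest adjusted p = 0.260). Of the hydrolases other than NEU1, MANBA was at 0.22 (adjusted p = 0.321) and LIPA at 0.10 (0.716), while the galactosidase GLA (-0.057), GAA (-0.033), HEXA (-0.0071) and the glucuronidase GUSB (0.0037) were nearer 0. CD63 and LAMP2 were at -0.022 and 0.17. Among autophagy proteins, BECN1 of the lipid kinase complex was at 0.0042 and UVRAG at 0.18, and the conjugation enzymes ATG5 and ATG7 at 0.082 and -0.045.

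The comparison of IGF1 with no IGF1 asked whether the growth factor moved these genes. No member passed in limma in Ctrl cells, against 0.0306% of all features, in TMEM216 cells, against 0.0153%, or averaged over both, against 0.0536%. In Ctrl cells 1 member, TPP1, was lower at an unadjusted p under 0.05 and none higher, against 5.67% and 1.22% of all features. TPP1 was at 48.6, 54.4 and 53.7 TPM in Ctrl and 40.0, 51.3 and 33.0 TPM in Ctrl+IGF1, which overlap (-0.35, adjusted p = 0.673). In TMEM216 cells CTSD and NEU1 were higher at that level and none lower, against 3.08% and 1.7%. NEU1 went from 36.9 to 43.7 TPM on average with no overlap (0.24, SE 0.078, adjusted p = 0.844). Averaged over both populations NEU1, CTSL and CTSD were higher at an unadjusted p under 0.05 and none lower, against 1.68% and 4.19%. The members' medians in the 3 comparisons, -0.077, 0.045 and -0.0095, stand beside -0.088, 0.018 and -0.028 over all features, and after median-of-ratios scaling they were 0.013, 0.025 and 0.025. The largest of these 3 shifts of all features, in Ctrl cells, was -0.024 without Ctrl+IGF1 replicate 3, and the members' median was then -0.019.

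The interaction, which asks whether the TMEM216 difference depended on IGF1, passed for no member in limma, against 0.0153% of all features. At an unadjusted p under 0.05, CTSD and CTSB were higher and none lower, against 4.47% and 0.91% of all features. CTSD stood at 0.47 (SE 0.14, adjusted p = 0.754) and CTSB at 0.51 (SE 0.20, adjusted p = 0.754). The median of the members was 0.11, the same as over all features (0.11), and that of the 6 proteases was 0.28, all 6 being above 0. The protease median was 0.17 with 4 above 0 after median-of-ratios scaling, and 0.22 with 6 above 0 after quantile normalization. Without the 2 libraries that stood apart it was 0.15, with 5 above 0. Estimates were above 0 for 29 members and below 0 for 6 of 35, against 29.8% of all features below 0. After median-of-ratios scaling the medians were 0.0041 for the members and 0.0040 for all features. Once the 2 libraries that stood apart were left out, the members' median was 0.0025 and that of all features 0.021. For none of the 5 members lower in the averaged comparison was a difference between the IGF1 conditions shown.

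A further 147 lysosome and autophagy genes that are not among the 35 were listed by role, and 144 passed the filter. In the averaged comparison 5 of the 144 were lower in TMEM216 cells and none higher, with a median of -0.029. This count is close to the share of all features called lower (3.21%), so the 5 are described as single genes. Of 34 other acid hydrolases tested, CTSF and DNASE2 were lower, and of 36 other autophagy genes, MAP1LC3A, WDR45 and TP53INP2. None of 23 other membrane proteins, 13 other V-ATPase subunits, 20 genes of mTORC1, Rag GTPase and MiT regulation, or 18 genes of lysosomal sorting and fusion passed in any of the 7 contrasts. At an unadjusted p under 0.05 in the averaged comparison, these 4 lists had 1, 0, 0 and 0 genes higher and 1, 2, 0 and 0 lower. Over all features 8.93% were higher and 11.1% lower at that level.

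MAP1LC3A encodes LC3A, a close relative of LC3B. It was at 3.08, 3.72 and 2.62 TPM in Ctrl, 3.84, 5.11 and 3.84 TPM in Ctrl+IGF1, 2.26, 2.45 and 2.95 TPM in TMEM216 and 1.14, 0.853 and 1.36 TPM in TMEM216+IGF1. The TMEM216+IGF1 libraries were the lowest 3 of the 12. MAP1LC3A fell by 1.31 with IGF1 (SE 0.16, limma adjusted p = 0.00126) and by 0.76 averaged (SE 0.11, adjusted p = 0.00234), and both calls held on leaving out any single library. Without IGF1 MAP1LC3A did not pass, and the TMEM216 and Ctrl libraries overlapped. Its interaction, -1.09, did not pass (adjusted p = 0.673). At these low levels the 1 added to each TPM understates the fold differences, as for TFEB.

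WDR45, a relative of WIPI1 that acts at the forming autophagosome, fell from 69.3 ± 2.99 to 55.5 ± 4.26 TPM (SD, n = 6), by 0.32 (SE 0.056, limma adjusted p = 0.00698), and kept its call without any single library. It overlaps PRAF2 on the same strand. CTSF, a cysteine protease, was at 20.5, 20.4 and 20.1 TPM in Ctrl, 16.7, 15.9 and 12.8 TPM in Ctrl+IGF1, 11.2, 13.0 and 15.2 TPM in TMEM216 and 14.1, 14.0 and 13.2 TPM in TMEM216+IGF1. It fell by 0.60 without IGF1 (SE 0.12, adjusted p = 0.0340) and by 0.36 averaged (SE 0.084, adjusted p = 0.0287). With IGF1 it did not pass, and the TMEM216+IGF1 and Ctrl+IGF1 libraries overlapped. The averaged call of CTSF held without Ctrl+IGF1 replicate 2 or 3 or TMEM216 replicate 1 or 3, and that without IGF1 on leaving out any Ctrl+IGF1 library or TMEM216 replicate 3. Without any other library the adjusted p was at most 0.0812 and 0.146.

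DNASE2, the acid endonuclease, fell by 0.25 averaged (SE 0.061, limma adjusted p = 0.0358), and TP53INP2, which binds LC3 proteins, by 0.22 (SE 0.057, adjusted p = 0.0452). All 6 TMEM216 libraries were below all 6 Ctrl libraries for both genes. The call of DNASE2 held without Ctrl replicate 1 or Ctrl+IGF1 replicate 2 or 3, and that of TP53INP2 without Ctrl+IGF1 replicate 3. Without any other library the adjusted p was 0.0570 to 0.108 for DNASE2 and 0.0573 to 0.126 for TP53INP2. TCACGTG was present in 23 of 115 of these other genes with a promoter window (20%), against 4.49% of all genes.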

How the data were processed

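Per the labels' protocols, total RNA was extracted with TRIzol and treated with DNase, and libraries were made with a TruSeq RNA kit. The authors deposited TPM for 21574 features (20443 with Ensembl identifiers, 1131 assembled features). HISAT2, StringTie and RSEM were used, per the submitters' processing notes; versions, genome build, annotation and strand setting are not stated in the sources used here. TPM holds no read counts, so depth and counting error are unknown.

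From these values log2(TPM + 1) was computed. Features with at least 1 TPM in at least 3 libraries were kept (13071), and the 4 group means were fitted together with limma 3.58.1 (R 4.3.3, package data.table at 1.17.8) using a mean-variance trend and 8 residual degrees of freedom. All 7 contrasts were tested two-sided, p-values were adjusted over the 13071 features, and the threshold was 0.05. The fit was tested on simulated data. Group labels came from the sample titles. A deviation is a library's log2(TPM + 1) minus its group mean. Promoters were searched with Python 3.11.15 and pandas 2.3.3, and figures drawn with matplotlib 3.10.9. Exon overlaps came from GENCODE release 29, used for overlap only.

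Values in every library are given for members past the threshold in any contrast and for TFEB, TFE3, LAMP1, SQSTM1, MAP1LC3B and ULK1; of the other listed genes, up to 4 per list and contrast that passed are named. Members, lists and tests were chosen with earlier results of these data known. Whether replicate numbers pair the libraries cannot be settled with 3 libraries a group, and the main fit used no pairing. Of 18 same-numbered pairs, 4 had deviations correlated above 0.1. Of these, 2 were between Ctrl and TMEM216 (at most 0.11) and 2 between Ctrl+IGF1 and TMEM216+IGF1 (at most 0.17). The lowest correlation, between TMEM216 and TMEM216+IGF1, was -0.29. Alternatives changed the pseudocount (0.1), the filter (none, or 5 TPM), the scaling (quantile, median-of-ratios), the trend (none) or the libraries fitted (the 6 of a contrast), or added a minimum absolute log2 change of 0.5, or a replicate block, or left libraries out.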

Additional observations from a re-analysis of the deposited data

How the results depend on the processing

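With TPM the depth is unknown, and 3 libraries a group limit what could be called. In the averaged TMEM216 comparison, where 5 members passed, 5 also passed with a pseudocount of 0.1, no filter, quantile normalization, median-of-ratios scaling or no trend, and 4 with a minimum of 5 TPM, which leaves TFEB untested. Requiring an absolute log2 change of 0.5 left 1 (TFEB). For other pseudocounts, filters, scalings, trends, minimum changes or fits of only 6 libraries, the share of all features called is not set beside the count here. Those counts are therefore not read as particular to the members. Leaving out each library gave 2 to 5, always with MAP1LC3B and NEU1. Without IGF1, where 1 passed, 2 passed with no filter and 2 once both Ctrl+IGF1 replicate 3 and TMEM216 replicate 1 were dropped, 0 with no trend, 0 in a fit of only the 6 libraries and 0 at an absolute change of 0.5; leaving out each library gave 0 to 2. With IGF1, where 0 passed, leaving out each library gave 0 to 1. Calls over all features moved too on leaving out each library, from 392 to 906 averaged (682 with all libraries), 43 to 273 without IGF1 (143) and 84 to 462 with IGF1 (211), so the background shares move by more than 1.5 times. The IGF1 and interaction contrasts gave 0 members under every alternative run. Median-of-ratios scaling turned the members' median with IGF1 from 0.021 to -0.034 and that of IGF1 in Ctrl cells from -0.077 to 0.013.

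With the replicate number as a block, 3 members passed in the averaged comparison (MAP1LC3B, NEU1 and TFEB) and 0 without IGF1. The share of all features called in that fit is not set beside these counts, so they are not read as particular to the members. Whether the numbers pair the libraries is not settled, and 4 of 12 libraries correlated best with their own number.

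LAMP1 and SQSTM1, near 0 and never past the threshold, turned positive in places. Averaged, LAMP1 ranged from -0.067 to 0.070 over single omissions and stood at 0.0011 without Ctrl replicate 3, 0.0022 and 0.048 without Ctrl+IGF1 replicate 1 and 2, 0.070 without TMEM216 replicate 1, 0.00042 and 0.011 when TMEM216+IGF1 replicate 1 or 3 was omitted, and 0.0083 with both libraries that stood apart dropped; in cells without IGF1 it ranged from -0.23 to 0.0071, the latter without TMEM216 replicate 1, also with Ctrl+IGF1 replicate 3 omitted. SQSTM1, averaged, ranged from -0.059 to 0.030 and was 0.030 without Ctrl+IGF1 replicate 2, 0.028 without TMEM216 replicate 1, and 0.019 and 0.0034 when TMEM216+IGF1 replicate 1 or 3 was omitted. The cause was not tested.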
